A study of Mus musculus with 12 samples.

Results

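Type 2 cytokines and their receptors were followed in the periocular skin of filaggrin-deficient mice with and without MyD88. The set held 10 genes chosen by symbol: the cytokines Il4, Il5, Il13, Il31 and Tslp, and the receptor chains Il4ra, Il13ra1, Il13ra2, Il5ra and Crlf2. Of these 10 genes, 8 had a row in the count table of 21247 genes, and all 8 had enough reads to be tested among 20454 genes. Il5 and Il31 were not analysed here.

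Both groups were filaggrin-deficient, being homozygous for the inactivating ft allele, and neither carried ma, the Tmem79 mutation of flaky tail mice. They differed in MyD88, which the ft/ftMyD88-/- mice, from an in-house cross, lacked in all cells. All mice were 6 weeks old and on a BALB/c background, and the comparison was of 4 ft/ft with 4 ft/ftMyD88-/- libraries of bulk skin RNA. The 4 wild-type samples of the series were not analysed here. The labels number the libraries of a group without saying that each came from its own animal, while the study describes 4 mice per group, so p-values measure the spread between these libraries.

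IL-4 and IL-13 are the signature cytokines of type 2 immunity and share the receptor chain IL-4Rα. With the common gamma chain, IL-4Rα forms a receptor for IL-4 alone, and with IL-13Rα1 it forms the receptor through which keratinocytes, fibroblasts and macrophages respond to either cytokine, largely through STAT6. IL-13Rα2 binds IL-13 tightly and is generally regarded as a decoy. TSLP is an epithelial alarmin that signals through CRLF2 paired with the IL-7 receptor chain, and IL-5 acts on eosinophils through IL-5Rα. In atopic dermatitis these cytokines are tied to itch, eosinophils and a weakened epidermal barrier.

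The members called between the genotypes were receptor chains, and no cytokine passed the test. Il4ra was 1.99-fold and Crlf2 1.66-fold higher in ft/ftMyD88-/- than in ft/ft skin, while Il13ra1, Il13ra2, Il5ra, Il4, Il13 and Tslp did not pass an adjusted p of 0.05 in edgeR's quasi-likelihood test. Thus 2 of 8 tested members were called, both higher, beside 23.3% of all genes tested, 10.9% higher and 12.3% lower. The median log2 fold change of the members was 0.17, beside 0.01 for all genes. With such a background, 2 of 8 is near the share seen across all genes.

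Library totals spanned 18941705 to 29255129 counts for ft/ft and 15802957 to 27037997 counts for ft/ftMyD88-/- skin, and 3 counts, the floor used here, amounted to between 0.102 and 0.183 CPM (read counts scaled to a common library depth, with TMM factors). Scaling by library size alone raised the median of all genes by 0.18 on the log2 scale and turned 2239 higher and 2525 lower calls into 4638 and 1326. Transcripts of 4 Y-linked genes summed to 132 to 164 CPM in the ft/ft libraries and to 0 to 1.31 CPM in the others, and Xist was at 0 to 0.0429 CPM against 34.6 to 66.8 CPM, so genotype and sex cannot be told apart here although the labels call all mice female. This touches every comparison, and Il13ra1, Il13ra2 and Il2rg lie on the X chromosome. One control library, ft/ft replicate 2, stood apart on inflammatory keratinocyte genes, with S100a8 at 88.4 CPM beside 1.53 to 8.96 CPM in the other ft/ft libraries; without it the log2 difference was 1.06 for Il4ra, which was then not called (edgeR adjusted p = 0.0638), and 0.66 for Crlf2, which was (edgeR adjusted p = 0.023). Myd88 reads, counted over the whole gene, were not lower in the deficient libraries, with 30.7 ± 4.74 CPM in ft/ft and 41.2 ± 7.29 CPM in ft/ftMyD88-/- skin (SD, n = 4 each), a log2 difference of 0.42 (edgeR adjusted p = 0.0484). Counts over a whole gene do not show whether the deleted part is missing, so Myd88 does not check the genotype labels here, and groups are named as labelled. In bulk skin, fewer cells of a type and less RNA per cell cannot be told apart.

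The sequences just before the start sites of the receptor genes set the called members, Il4ra and Crlf2, beside the pair of IL-13 receptor genes on the X chromosome. They are RefSeq sequences of mouse build GRCm38.p6, printed 5′ to 3′ on the gene's strand and ending before the outermost annotated start. Capitals mark matches on either strand to an NF-κB-type motif (GGG, then 5 letters of any kind, then CC) or an AP-1 motif (TGANTCA).
Il4ra, chr7:125552021-125552119, plus strand: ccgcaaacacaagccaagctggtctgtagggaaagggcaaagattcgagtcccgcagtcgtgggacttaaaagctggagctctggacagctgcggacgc
Crlf2, chr5:109559129-109559243, minus strand: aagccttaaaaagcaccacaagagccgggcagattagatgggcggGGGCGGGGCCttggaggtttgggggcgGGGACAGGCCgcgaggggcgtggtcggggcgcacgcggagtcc
Il13ra1, chrX:36111858-36112107, plus strand: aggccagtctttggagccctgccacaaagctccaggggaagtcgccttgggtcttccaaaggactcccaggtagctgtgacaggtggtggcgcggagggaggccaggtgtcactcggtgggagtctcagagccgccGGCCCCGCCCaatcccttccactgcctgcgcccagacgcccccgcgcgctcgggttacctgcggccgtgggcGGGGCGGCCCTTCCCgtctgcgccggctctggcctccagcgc
Il13ra2, chrX:147429193-147429442, minus strand: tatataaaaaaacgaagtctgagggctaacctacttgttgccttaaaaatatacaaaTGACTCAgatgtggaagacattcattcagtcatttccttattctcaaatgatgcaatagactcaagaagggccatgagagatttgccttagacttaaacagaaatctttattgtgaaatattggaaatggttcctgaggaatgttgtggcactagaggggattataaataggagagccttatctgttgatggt

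Stretches of 99 bases at Il4ra, 115 at Crlf2 and 250 at each of Il13ra1 and Il13ra2 are shown. G and C made up 70.8% of the letters at Il13ra1, 69.6% at Crlf2, 57.6% at Il4ra and 36% at Il13ra2. The NF-κB-type motif was found 3 times at Il13ra1, where some matches overlap each other, and 2 times in the shorter stretch at Crlf2, but not at Il4ra. Of 32851 RefSeq promoter windows of 250 bases, 45.8% held this motif, so its presence is common. The AP-1 motif occurred once at Il13ra2 and once at Il5ra, beside 6.75% of all windows. A STAT6-type motif (TTC, then 4 letters of any kind, then GAA) was matched among the members by Il4 alone, as TTCACAGGAA 167 bases before its start, beside 5.85% of windows. The same motif with 3 letters between TTC and GAA, held by 7.02% of windows, was not matched by any of the 9 members with a promoter entry. The stretches of the called members Il4ra and Crlf2 thus held neither STAT-type motif, which describes these letters only.

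Il4, the cytokine that drives type 2 helper T cell differentiation and IgE switching (chr11:53612460-53618665), was present at low levels in all libraries. It was counted 23, 25, 27 and 33 times in ft/ft replicates 1, 2, 3 and 4 and 30, 35, 42 and 11 times in the ft/ftMyD88-/- replicates. The group levels were 1.17 ± 0.273 CPM and 1.18 ± 0.342 CPM (SD, n = 4 each). Both groups covered the same range, with ft/ftMyD88-/- replicate 4 the lowest of all. The log2 difference was 0.05 with a 95% confidence interval from -0.56 to 0.65 (edgeR adjusted p = 0.916), and its sign was not stable when single libraries were left out, running from -0.06 to 0.22.

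Il13, the other ligand of the shared receptor (chr11:53631323-53634702), lies near Il4 in the type 2 cytokine locus. It was counted 12, 7, 3 and 5 times in ft/ft skin and 5, 18, 6 and 4 times in ft/ftMyD88-/- skin, so several libraries were close to the floor. Most of the ft/ftMyD88-/- group lay inside the ft/ft range and replicate 2 stood above it. Mean levels were 0.282 ± 0.159 CPM and 0.332 ± 0.22 CPM (SD, n = 4 each), with a log2 difference of 0.25 and an interval from -0.90 to 1.40 (edgeR adjusted p = 0.769). Without ft/ftMyD88-/- replicate 2 the difference became -0.36. A difference in either direction was not detectable at this depth.

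Tslp, the epithelial alarmin (chr18:32815383-32819799), had the lowest log2 fold change of the members. It reached 1.24, 0.946, 0.725 and 1.07 CPM in ft/ft and 0.351, 0.404, 0.953 and 0.305 CPM in ft/ftMyD88-/- replicates 1 to 4, from 5 to 29 counts a library. Among the ft/ftMyD88-/- libraries, replicate 3 lay within the ft/ft range and the others lay below it. The log2 difference was -0.93 ± 0.371 (SE) with an interval from -1.74 to -0.13, and it did not pass after adjustment over all genes (edgeR adjusted p = 0.0882; exact two-sided permutation p = 0.0857). Leaving out ft/ftMyD88-/- replicate 3 gave -1.46 with an edgeR adjusted p of 0.00989, so whether Tslp was called turned on that library.

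**Figure D1:**
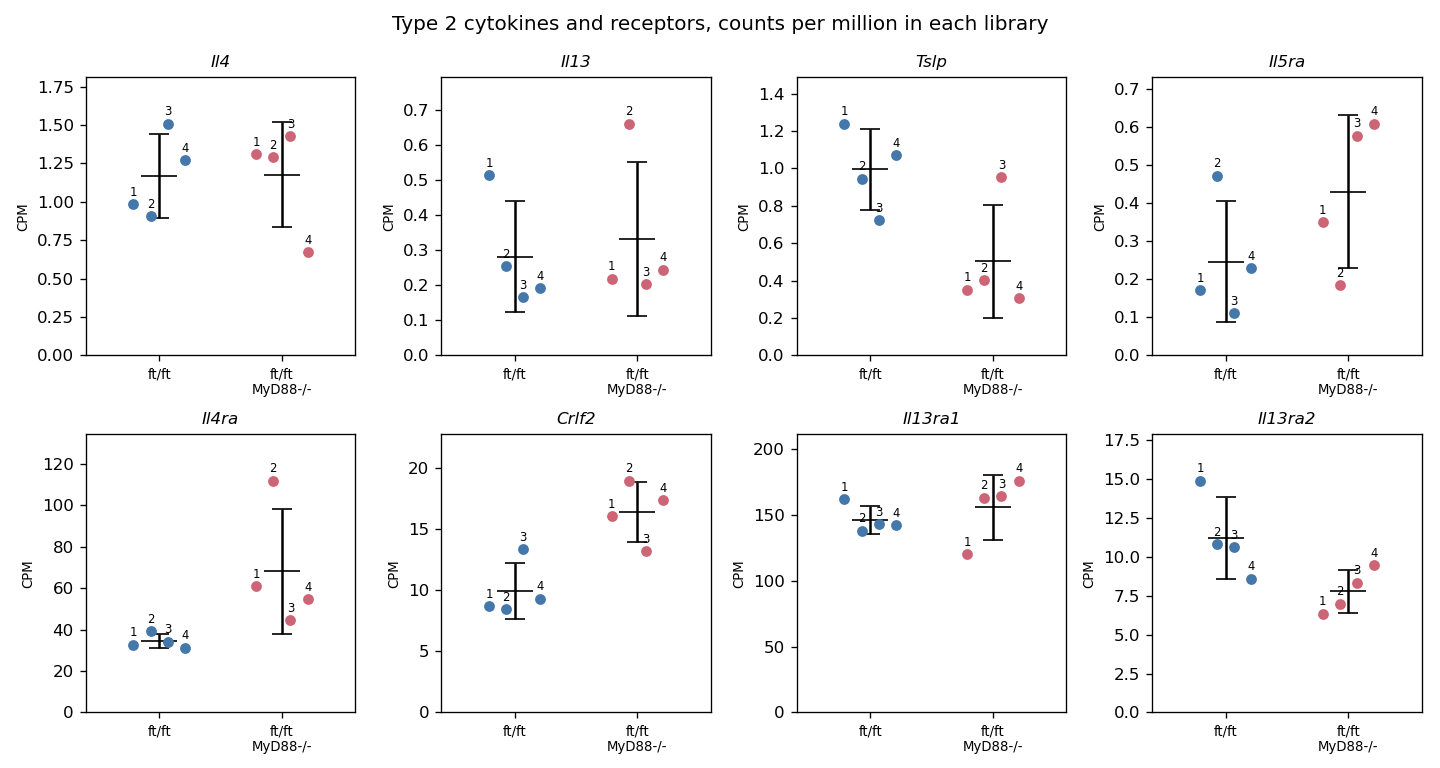
Level of each tested member in CPM (vertical axes, each starting at 0) in the 4 ft/ft (blue) and 4 ft/ftMyD88-/- (red) libraries. Points carry replicate numbers, and bars give the mean and SD of a group; Il4ra is the panel in which all ft/ftMyD88-/- points lie above all ft/ft points.

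Il4ra encodes the chain that IL-4 and IL-13 share (chr7:125552271-125579474, plus strand). It was read at 32.8, 39.2, 34.2 and 31.2 CPM in ft/ft and at 61, 112, 44.6 and 54.7 CPM in ft/ftMyD88-/- replicates 1 to 4. Groups did not overlap, which held for 26.7% of all genes tested, and ft/ftMyD88-/- replicate 2 was far above the rest. From 34.4 ± 3.47 to 68.2 ± 30.3 CPM (SD, n = 4 each), the log2 difference was 0.99 ± 0.275 (SE), with an interval from 0.36 to 1.62 (edgeR adjusted p = 0.0354). The exact two-sided permutation p of 0.0286 was the smallest that 4 against 4 allows.

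The Il4ra call was sensitive to single libraries while its direction was not. Without ft/ftMyD88-/- replicate 2 the log2 difference fell to 0.64 and the edgeR adjusted p was 0.00617, and without replicate 3 of that group these were 1.16 and 0.00985. Leaving out any of ft/ft replicates 1, 2, 3 and 4 gave edgeR adjusted p-values of 0.0919, 0.0638, 0.0829 and 0.0891, and leaving out ft/ftMyD88-/- replicate 1 or 4 gave 0.0681 and 0.0514. Its exons share 571 bases with the antisense gene Gm44876, and the strand setting of the counting was not given in the sources used here, so reads of these 2 genes cannot be told apart over that stretch.

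Crlf2, the TSLP-binding receptor chain (chr5:109554709-109559128, minus strand), was the other called member. In ft/ft replicates 1 to 4 it stood at 8.7, 8.47, 13.4 and 9.32 CPM, and in ft/ftMyD88-/- replicates at 16.1, 19, 13.2 and 17.4 CPM. The groups met at a single point, ft/ft replicate 3 lying just above ft/ftMyD88-/- replicate 3. Mean levels were 9.97 ± 2.31 and 16.5 ± 2.46 CPM (SD, n = 4 each). The log2 difference of 0.73 ± 0.164 (SE) had an interval from 0.37 to 1.08 (edgeR adjusted p = 0.00796; exact two-sided permutation p = 0.0571). Crlf2 was called under each of the 16 alternatives tallied for it, with log2 differences between 0.65 and 0.90. These are other fits and a stricter adjusted p of 0.01. It was not called where a log2 change of at least 1 was also required. TSLP's own transcript, described above, had a log2 difference below 0 beside this higher receptor transcript.

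Il13ra1, the chain that completes the receptor for either cytokine on non-haematopoietic cells (chrX:36112108-36171262), was the member with the highest level per exon length. Its values were 162, 138, 143 and 142 CPM in ft/ft and 120, 163, 164 and 176 CPM in ft/ftMyD88-/- skin. Replicate 1 of the ft/ftMyD88-/- group was the lowest library, and the other members of that group were the highest. The log2 difference was 0.09 ± 0.116 (SE) with an interval from -0.16 to 0.34 (edgeR adjusted p = 0.62), which is the narrowest interval among the members.

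Il13ra2, the IL-13 decoy receptor (chrX:147383478-147429192) and itself a gene that IL-13 induces, was at 14.9, 10.8, 10.6 and 8.59 CPM in ft/ft and at 6.35, 6.98, 8.34 and 9.45 CPM in ft/ftMyD88-/- skin. Only ft/ftMyD88-/- replicate 4 reached into the ft/ft range, above ft/ft replicate 4. Mean levels were 11.2 ± 2.64 and 7.78 ± 1.39 CPM (SD, n = 4 each). At -0.53 ± 0.18 (SE), with an interval from -0.92 to -0.14, it just missed the threshold for a call (edgeR adjusted p = 0.0505; exact two-sided permutation p = 0.0571). It was called without ft/ft replicate 4, with an edgeR adjusted p of 0.033, without ft/ftMyD88-/- replicate 4, with 0.0434, and in DESeq2, with 0.0279.

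Il5ra, the ligand-binding chain of the IL-5 receptor on eosinophils (chr6:106710375-106749037), was near the floor, at 4, 13, 2 and 6 reads for ft/ft replicates 1 to 4, and at 8, 5, 17 and 10 reads for the ft/ftMyD88-/- replicates. The groups overlapped widely. A log2 difference of 0.71 with an interval from -0.42 to 1.83 did not pass the test (edgeR adjusted p = 0.353).

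**Figure D2:**
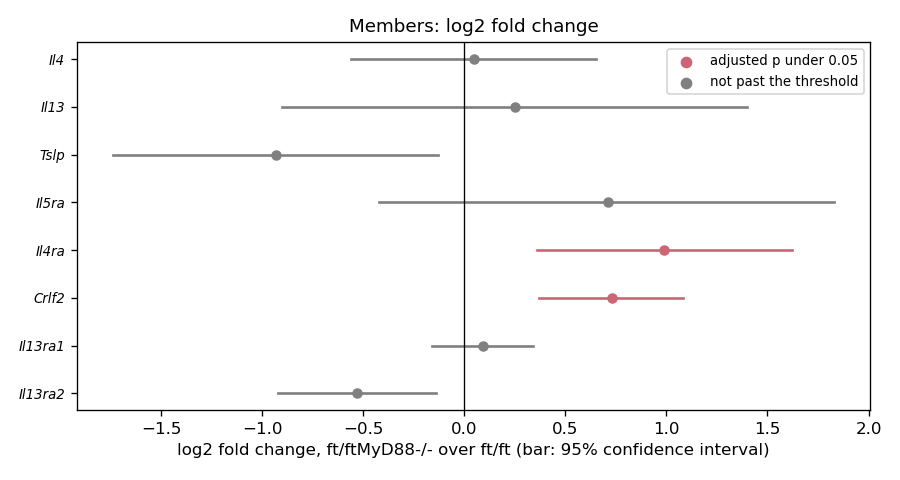
Log2 fold change of each tested member, ft/ftMyD88-/- over ft/ft (points, horizontal axis), with its 95% confidence interval (bars). The 2 red points, Il4ra at 0.99 and Crlf2 at 0.73, passed an adjusted p of 0.05 and lie right of 0, and the widest intervals belong to Il13 and Il5ra.

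Per kilobase of exon, Il13ra1 stood far above the rest in ft/ft skin at 39.4 ± 2.78 CPM per kb (SD, n = 4). Crlf2 at 6.67 ± 1.54, Il4ra at 5.72 ± 0.578 and Il13ra2 at 4.92 ± 1.16 CPM per kb formed a middle tier whose spreads overlapped. Il4 at 0.951 ± 0.223 and Tslp at 0.749 ± 0.164 CPM per kb did not differ beyond their spread, and Il13 at 0.234 ± 0.132 and Il5ra at 0.0689 ± 0.0443 CPM per kb came last, with spreads that also met. In ft/ftMyD88-/- skin the middle tier opened up: Il4ra at 11.4 ± 5.04 and Crlf2 at 11 ± 1.64 CPM per kb lay together, and Il13ra2 was at 3.41 ± 0.608 CPM per kb, with Il13ra1 still first at 42 ± 6.67. Below them came Il4 at 0.958 ± 0.279, then Tslp at 0.378 ± 0.227 and Il13 at 0.276 ± 0.183, which overlapped, and Il5ra at 0.12 ± 0.0562 CPM per kb. By their means, the cytokines lay below the receptor chains other than Il5ra in either genotype, and Il5ra and Il13 did not differ beyond their spread. Levels per kb take reads as spread over the whole transcript. The sample labels and the study's methods name different protocols, so this could not be checked.

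Ratios of 2 receptor chains within a library do not depend on how libraries were scaled. For every 100 Il13ra1 reads there were 9.22, 7.81, 7.42 and 6.05 Il13ra2 reads in ft/ft and 5.32, 4.28, 5.09 and 5.38 in ft/ftMyD88-/- replicates 1 to 4, and the groups did not overlap. Reads of Il13ra2 were thus fewer relative to those of Il13ra1 in each ft/ftMyD88-/- library than in any ft/ft library. On the log2 scale the ratio was lower by a difference of -0.59, with an exact two-sided permutation p of 0.0286, the smallest possible, which became 0.114 after Benjamini-Hochberg adjustment over the 4 ratios computed.

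The ratio of Il13ra1 to Il4ra reads was 2.09 ± 0.206 on the log2 scale in ft/ft and 1.27 ± 0.623 in ft/ftMyD88-/- skin (SD, n = 4 each). This difference of -0.82 had an exact permutation p of 0.0571, adjusted to 0.114, and ft/ft replicate 2 at 1.82 lay below ft/ftMyD88-/- replicate 3 at 1.88. Crlf2 to Il7r, the chains of the TSLP receptor, differed by 0.32 (exact permutation p = 0.114, adjusted 0.152), and Il2rg to Il4ra, the chains of the IL-4 receptor on lymphocytes, by -0.29 (exact permutation p = 0.514, adjusted 0.514). None of the 4 ratios passed after adjustment. For Il13ra2 to Il13ra1 the exact permutation p of 0.0286 was already the smallest that 4 against 4 libraries allows. Its adjusted value of 0.114 also depended on the exact permutation p-values of the other ratios, 0.0571, 0.114 and 0.514.

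**Figure D3:**
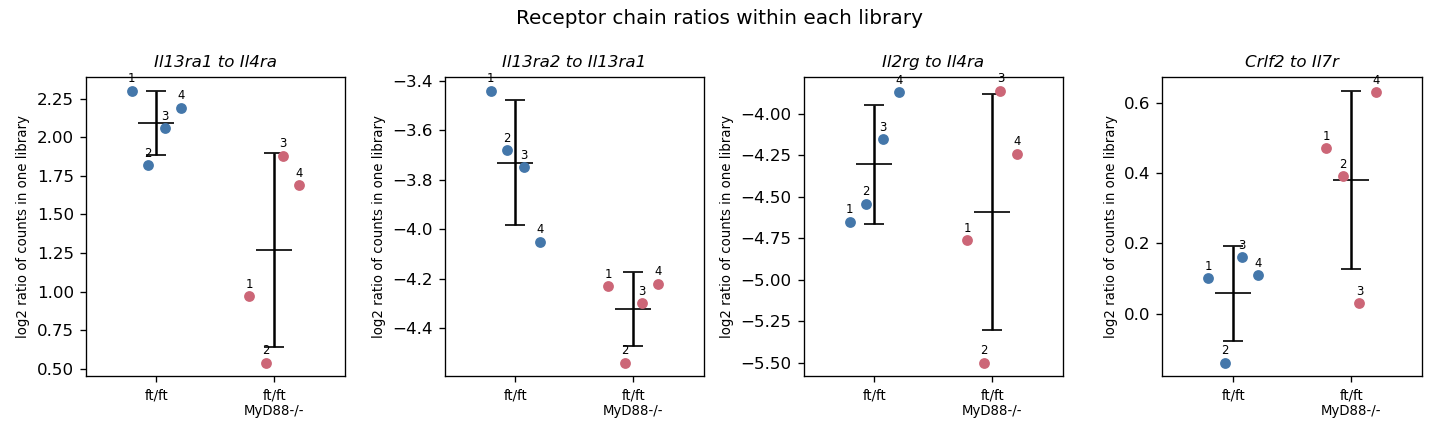
Log2 ratio of read counts of 2 receptor chains in each library (vertical axes, differing in range and not starting at 0) for 4 ft/ft (blue) and 4 ft/ftMyD88-/- (red) libraries, with group mean and SD. In the Il13ra2 to Il13ra1 panel the highest ft/ftMyD88-/- point, -4.22, lies below the lowest ft/ft point, -4.05.

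Partner chains and the signalling genes downstream were examined as a list of 20 genes. Of these, 4 were higher, 2 were lower and 14 did not pass, the median log2 fold change being 0.12, beside 10.9% higher and 12.3% lower among all genes, and with scaling by library size alone 10 were higher and 1 lower. The suppressors of cytokine signalling Socs1, Socs2 and Socs3 are feedback genes induced by JAK-STAT receptors. They were higher by 0.79, 0.78 and 0.55 on the log2 scale (edgeR adjusted p = 0.00396, 0.00163 and 0.0123). Their groups did not overlap, which held for 26.7% of all genes tested. Cish, a feedback gene of STAT5, fell by 0.59 (edgeR adjusted p = 0.006).

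Socs1 stood at 4.76, 4.44, 6.36 and 4.52 CPM in ft/ft and at 7.27, 8.89, 8.71 and 9.63 CPM in ft/ftMyD88-/- skin. Cish ran the other way, from 12.1, 12.7, 11.7 and 10.3 CPM to 8.72, 6.69, 8.17 and 7.56 CPM. Cish was thus lower where the other family members were higher, and the shift of 0.18 under scaling by library size is smaller than each of these 4 differences.

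Osmr, which pairs with the IL-31 receptor, was higher by 0.47 (edgeR adjusted p = 0.0209), and Jak1, the kinase bound to IL-4Rα, fell by 0.32 (edgeR adjusted p = 0.0261). Il31ra, the ligand-binding chain of the IL-31 receptor, was counted 150, 151, 118 and 103 times in ft/ft and 60, 100, 150 and 14 times in ft/ftMyD88-/- skin, so the groups overlapped and the log2 difference of -0.83 did not pass (edgeR adjusted p = 0.17). Il2rg, the common gamma chain, had a log2 difference of 0.61 (edgeR adjusted p = 0.0536) and Il7r one of 0.41 (edgeR adjusted p = 0.0591). Stat6, the main transcription factor of the IL-4 receptor, lay at -0.17 (edgeR adjusted p = 0.169).

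**Figure D4:**
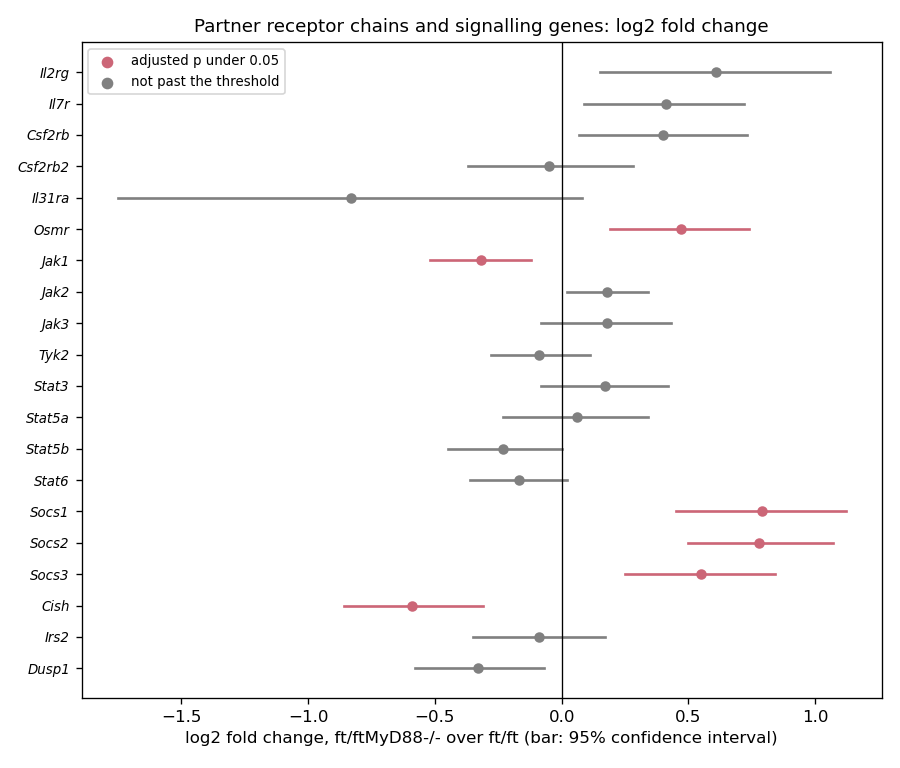
Log2 fold change, ft/ftMyD88-/- over ft/ft, of the 20 partner receptor chains and signalling genes (points) with 95% confidence intervals (bars). Red points passed an adjusted p of 0.05: Socs1, Socs2, Socs3 and Osmr lie right of 0, Cish and Jak1 left of it.

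Alarmins and neighbours of the type 2 pathway made up a list of 18 genes, of which 15 were tested. Of those, 3 were higher and 2 lower, beside 10.9% and 12.3% of all genes, and the median log2 fold change was 0.19. Il9, Il3 and Csf2 were not analysed here. Il25, an epithelial alarmin that activates innate lymphoid cells, was counted 21, 14, 19 and 8 times in ft/ft and 2, 2, 1 and 0 times in ft/ftMyD88-/- skin (edgeR adjusted p = 0.00204). With every ft/ftMyD88-/- library at or under 3 counts, the groups were well apart but the size of the change was not resolved. Batf, a transcription factor of activated lymphocytes, was higher by 1.55 (edgeR adjusted p = 0.000448). Areg, the growth factor amphiregulin, was higher by 1.34 (edgeR adjusted p = 0.00499), and Il3ra, the IL-3 receptor chain, by 0.90 (edgeR adjusted p = 0.00384). Rora, a factor needed by innate lymphoid cells, fell by 0.55 (edgeR adjusted p = 0.0041). Rora was at 188 to 244 CPM in ft/ft and at 124 to 166 CPM in ft/ftMyD88-/- skin, and which cells gave these reads was not tested.

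The alarmin Il33 was the gene whose library-to-library deviations from the group means lay closest to those of Il4ra, with Pearson's r of 0.856 over 8 libraries among 58 candidate genes of the pathway lists. Il33 stood at 38.8, 38.3, 29.8 and 28 CPM in ft/ft and at 31.6, 97.8, 34.2 and 48.5 CPM in ft/ftMyD88-/- skin. Its receptor gene Il1rl1, with r of 0.855, stood at 3.13, 3.49, 3.96 and 3.22 CPM and at 4.34, 37.5, 5.72 and 9.21 CPM. In all of Il4ra, Il33 and Il1rl1 the highest library was ft/ftMyD88-/- replicate 2, and neither Il33 (edgeR adjusted p = 0.274) nor Il1rl1 (edgeR adjusted p = 0.104) passed the test. These points share libraries and scaling factors, so the r values are descriptions. The closest genes to the other members were Ccl2 for Il13ra1 with r of 0.861, Il9r for Il13ra2 with 0.868, and Socs1 for Crlf2 with 0.711. Il9r had only 6 to 25 counts a library, since the minimum of 50 counts on average was set for members and not for candidates.

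**Figure D5:**
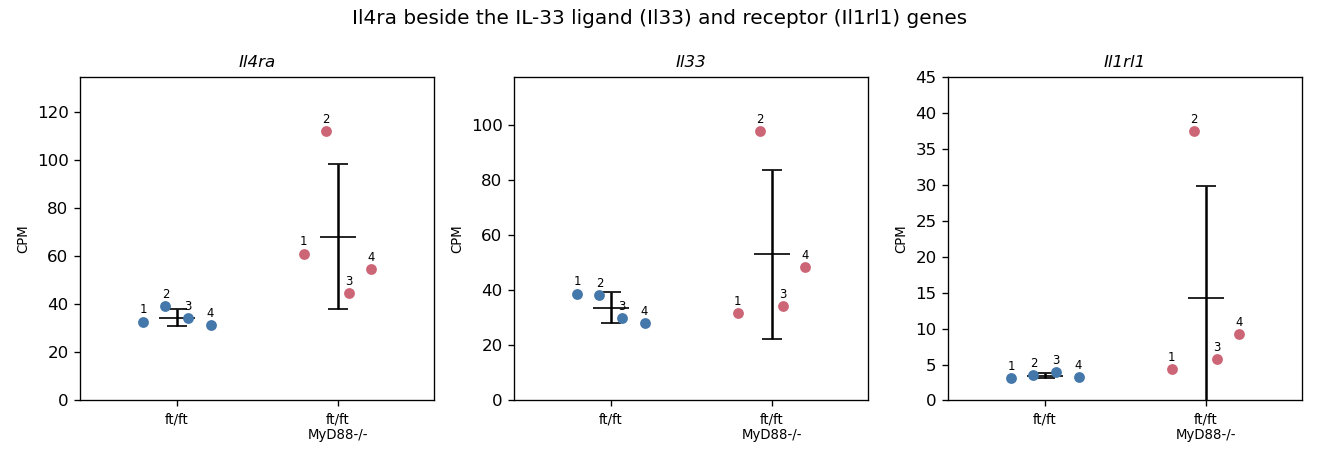
Levels in CPM (vertical axes starting at 0) of Il4ra, Il33 and Il1rl1 in 4 ft/ft (blue) and 4 ft/ftMyD88-/- (red) libraries, numbered by replicate, with group mean and SD. Replicate 2 of ft/ftMyD88-/- is the highest point in each panel, at 112, 97.8 and 37.5 CPM, and the SD bar of Il1rl1 runs below 0, where it is not drawn.

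Genes known to be induced by IL-4 and IL-13 formed a list of 28, of which 25 were tested, including the member Il13ra2 and the feedback genes Socs1 and Cish. Of the 25, 4 were higher and 2 lower, and the median log2 fold change was 0.10. These 6 of 25 are close to the 23.3% called among all genes. Retnla, Retnlg and Ear11 were not analysed here. The chemokine Ccl2, which recruits monocytes, was higher by 1.95 (edgeR adjusted p = 0.000633), and the matrix protein Postn, periostin, by 0.58 (edgeR adjusted p = 0.00246). Chil4, a chitinase-like protein, was counted 0, 14, 2 and 0 times in ft/ft and 26, 41, 28 and 46 times in ft/ftMyD88-/- skin (edgeR adjusted p = 0.0178), and Cdh1, E-cadherin, fell by 0.41 (edgeR adjusted p = 0.0113).

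The type 2 chemokines did not pass the test. Ccl17 differed by 0.25 and Ccl22 by -0.20, both ligands of CCR4 on type 2 helper cells (edgeR adjusted p = 0.748 and 0.354). The eotaxins Ccl11 and Ccl24 differed by 0.23 and -0.07 (edgeR adjusted p = 0.453 and 0.841). Arg1, a marker of alternatively activated macrophages, differed by -0.02 (edgeR adjusted p = 0.938) at levels from 109 to 191 CPM over the 8 libraries. Which cells of the skin gave these reads was not tested.

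Lists of marker genes for cell types of skin were also compared, beside 10.9% higher and 12.3% lower among all genes. Of 13 T cell genes 11 were higher, their summed level ranging from 30.3 to 38.1 CPM in ft/ft and from 49.6 to 67.6 CPM in ft/ftMyD88-/- skin. Of these, 7 such as Cd3e and Lck are shared by alpha beta and gamma delta T cells, with 6 higher, and the other 6 encode alpha beta receptor chains or CD4 and CD8, with 5 higher. Of 12 macrophage and monocyte genes 5 were higher, the list summing to 614 to 759 CPM against 893 to 1180 CPM. Of these sums Lyz2 alone gave 260 ± 13.5 CPM in ft/ft and 514 ± 117 CPM in ft/ftMyD88-/- skin (SD, n = 4 each). Among the 7 that did not pass were Adgre1, Csf1r, Cd68 and Mertk, with log2 differences of -0.03, -0.21, -0.11 and 0.12. Of 8 basal keratinocyte genes 6 were lower, from 14500 to 17800 CPM against 10100 to 12400 CPM, and of 12 skeletal muscle genes 10 were lower, from 9630 to 13100 CPM against 3790 to 7220 CPM. Fibroblast genes gave 1 higher and 3 lower of 8, summing to 14600 to 29700 CPM against 7620 to 11100 CPM. The part of these shifts in the Il4ra, Crlf2, Il13ra2 and Tslp values was not tested.

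Markers of eosinophils, basophils and mast cells, the granulocytes of type 2 inflammation, were low or moderate. Eosinophil genes, among them the member Il5ra, gave 2 higher and 1 lower of 7 tested. Their sums were 8.58 to 12.1 CPM in ft/ft and 4.12 to 9.42 CPM in ft/ftMyD88-/- skin. Ear2 alone set the lower sum, since the other 6 genes summed to 1.9 to 2.66 CPM in ft/ft and to 3.34 to 5.79 CPM in ft/ftMyD88-/- skin. Setting Ear2 apart was not planned and was chosen after seeing the data. Their defining granule gene Prg2 had between 0 and 7 counts in a library, and Epx and Prg3 were not analysed here. Siglecf was higher by 1.32 and Ear2 fell by 1.52 (edgeR adjusted p = 0.00476 and 0.0383), while Ear6 was at 0 in each ft/ft library and had 3, 5, 2 and 10 counts in the others. Basophil genes, among them the member Il4, summed to 8.87 to 10.3 CPM against 11.5 to 18.6 CPM with 1 of 6 tested higher. Of these sums Itga2b, which did not pass (edgeR adjusted p = 0.0978), gave 5.75 to 7.2 CPM in ft/ft and 6.87 to 11.9 CPM in ft/ftMyD88-/- skin. The defining protease gene Mcpt8 was at 0 in each ft/ft library and at 1, 14, 1 and 0 counts in the others. Prss34 was at or under 3 counts in every library. Mast cell genes summed to 118 to 150 CPM against 115 to 186 CPM, with 2 of 10 higher. Fcer1a was 1 of these 2 and also the basophil gene called. It was higher by 3.08 (edgeR adjusted p = 0.0013), from 3, 3, 3 and 6 counts in ft/ft to 11, 59, 33 and 29 counts in ft/ftMyD88-/- skin. Its ft/ft level was thus near the floor. All 6 tested basophil genes had log2 fold changes above 0, with a median of 0.87, as did 6 of 10 mast cell genes, with a median of 0.32. Among all genes 10.9% were higher and 12.3% lower, so 1 or 2 calls in a short list are near that share.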

How the data were processed

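The authors deposited raw gene counts of 8 libraries of periocular skin, which the study's methods describe as polyA RNA-seq of snap-frozen biopsies. Per the study's methods, HISAT and TopHat2 placed single-end reads on GRCm38.p6 before counting by HTSeq. Versions, the annotation release and the strand setting were not given in the sources used here, and the labels of these samples name a fixed-tissue protocol and Cell Ranger instead. From the counts, genes with a summed count of at least 10 were tested with edgeR 4.0.16 in R 4.3.3 (TMM, robust quasi-likelihood fit, Benjamini-Hochberg over 20454 genes, threshold 0.05), a fit tested on simulated data. The simulation changed only genes with more reads than Il13, Il5ra and Tslp had, and gave every gene the same spread. It therefore does not cover such low counts or a library that stands apart. CPM (counts per library of fixed size) used TMM-scaled library sizes. Levels per kb used GENCODE M21 exon lengths, promoters came from RefSeq, and gene positions are GRCm38. Ratios used log2 of counts plus 0.5 and exact permutation tests over libraries. Alternatives were DESeq2 1.42.0, limma 3.58.1, other scalings and filters, a replicate block and leaving out each library.

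Members and lists were chosen with earlier results of these data known. Named were the members, ratio partners, up to 4 called genes per list by absolute log2 fold change, defining markers at or near 0 and, for members with at least 50 counts on average, the closest gene by correlation. Osmr, Jak1, Il31ra, Stat6, Rora, Il1rl1, Arg1 and the chemokines Ccl11, Ccl17, Ccl22 and Ccl24 were named after their values were seen, as were Cdh1, Myd88 and the keratinocyte genes S100a8, S100a9, Krt16, Sprr2d and Sprr2h. Itga2b, Adgre1, Csf1r, Cd68 and Mertk were also named later, to describe their lists. Intervals and floors cover counting error or the spread between libraries only.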

Additional observations from a re-analysis of the deposited data

Results flagged for a closer look

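The genes named in the text and the 4 ratios were examined, apart from the sex-linked genes and some marker genes named only to describe a list. Of 152 groups of 4 libraries, 14 had a library far from the other 3. Its gap to the nearest of them, as a share of the group's range, exceeded Dixon's critical value, and chance gives about 1 in 20. Some of these genes were named because a library stood apart, so the share is not one of genes at large. Among members, Il13 in ft/ftMyD88-/- replicate 2 was at 0.661 CPM with the others at 0.204 to 0.244 CPM, and Tslp in ft/ftMyD88-/- replicate 3 was at 0.953 CPM with the others at 0.305 to 0.404 CPM. Il3ra in ft/ftMyD88-/- replicate 2 was at 8.34 CPM, with 5.52 to 5.91 CPM in the others. Socs1 in ft/ft replicate 3 was at 6.36 CPM, with 4.44 to 4.76 CPM in the others, in the library that also had the highest Crlf2 of its group. Il9r in ft/ft replicate 1 was at 0.986 CPM, with 0.383 to 0.473 CPM in the others, in the library that also had the highest Il13ra2. The T cell gene Cd8b1 reached 0.167 CPM in ft/ft replicate 3, beside 0.0364 to 0.0429 CPM elsewhere in that group, and the Langerhans cell gene Cd207 stood lower, with 20.7 CPM, in ft/ft replicate 2 than in the others, with 23.5 to 23.7 CPM. Il1rl1 in ft/ftMyD88-/- replicate 2 was at 37.5 CPM, with 4.34 to 9.21 CPM in the others, and the basophil gene Mcpt8 in the same library was at 0.514 CPM, with 0 to 0.0438 CPM in the others. Prss34 in ft/ftMyD88-/- replicate 3 was at 0.068 CPM, from 2 counts, and at 0 in the others. In ft/ft replicate 2, S100a8 was at 88.4 CPM with 1.53 to 8.96 CPM in the others, S100a9 at 134 CPM with 2.91 to 13.5 CPM, Krt16 at 253 CPM with 46.9 to 67.2 CPM, and Sprr2d at 47.8 CPM with 2.61 to 4.07 CPM.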

How the results depend on the processing

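Requiring a log2 change of 1 or more in size left 1272 of all genes, 0 members, 0 partner genes, 3 upstream genes and 2 target genes. An adjusted p under 0.01 left 2301 genes, 1 member (Crlf2) and 3 partner genes, and Il4ra, at 0.99, no longer passed. Scaling by library size alone called 11 partner genes. Leaving out 1 library at a time called 3346 to 4668 of all genes, 1 to 3 members, 5 to 6 partner genes, 5 to 6 upstream genes and 5 to 7 target genes. The member count was 1 without ft/ft replicate 1, 2 or 3 or ft/ftMyD88-/- replicate 1, and 3 without ft/ftMyD88-/- replicate 3. Il4 turned to -0.02 and -0.06 without ft/ft replicates 1 and 2 and to -0.04 without ft/ftMyD88-/- replicate 3 (range -0.06 to 0.22), Il13 to -0.36 without ft/ftMyD88-/- replicate 2 (range -0.36 to 0.69), and the Il2rg to Il4ra ratio to 0.02 without that library (range -0.53 to 0.02). Il13ra2 was also called without a filter on low counts (edgeR adjusted p = 0.0497). Il13 and Il5ra were removed by filterByExpr. The log2 fold changes of Crlf2, Il13ra1 and Il5ra kept their direction and their side of the adjusted p threshold in each of 16, 16 and 15 alternatives. The required log2 change of 1 is not among these. Where a cause is not evident from the setting, the cause was not tested. Depth limits Il13 and Il5ra, with 2 to 18 counts a library.

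Same-numbered libraries did not deviate together, with correlations of -0.349, 0.0381, 0.0719 and -0.0298 over 13508 genes. Differently numbered ones ran from -0.324 to 0.217. No pairing by number was seen, though so few libraries cannot exclude a weak one. With a replicate block, 4039 genes (1895 higher, 2144 lower), 2 members, 8 partner genes, 5 upstream genes and 6 target genes were called, and Il4ra and Tslp were at 0.90 and -1.02.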

Other observations

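Dendritic and Langerhans cell genes gave 3 higher and 1 lower of 10, beside 10.9% and 12.3% of all genes. Their sums were 602 to 706 CPM in ft/ft and 596 to 743 CPM in ft/ftMyD88-/- skin. All 8 hyperproliferative keratinocyte genes had log2 fold changes above 0, with a median of 1.87, and 0 passed the edgeR test after adjustment, with 4 at an unadjusted p under 0.05 and with 5 called by DESeq2 and 5 by limma voom. Their sums of 2790 to 3860 CPM and 3620 to 6450 CPM overlapped. S100a8, S100a9 and Krt16 did not overlap between the groups although ft/ft replicate 2 stood far above the other ft/ft libraries on them. Such a lack of overlap held for 26.7% of all genes tested. Without that library, an alternative chosen after seeing the data, 5 of the 8 were called higher, namely S100a8, S100a9, Krt16, Sprr2d and Sprr2h, with edgeR adjusted p-values from 0.00285 to 0.00849. Endothelial genes gave 1 lower of 6, near the 12.3% of all genes, with sums of 281 to 347 CPM against 222 to 301 CPM. Adipocyte genes gave 0 of 8 in edgeR, DESeq2 and limma voom, and 0 at an unadjusted edgeR p under 0.05, with sums of 1010 to 2170 CPM against 814 to 1980 CPM.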
